A study of Mus musculus with 9 samples.

Results

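The 7 small nucleolar RNA (snoRNA) host genes Gas5, Snhg1, Snhg3, Snhg5, Snhg6, Snhg8 and Snhg12 were followed through a mouse heart RNA-seq series. They were taken by gene name from a table of 54532 genes, and 6 of the 7 reached the mean of 0.5 FPKM (fragments per kilobase of a gene's length, scaled for sequencing depth) that 13477 genes passed. Right ventricular myocardium of wild-type C57BL/6 mice, labelled as postnatal day 7, gave 9 libraries in 3 groups of 3. The CsA group had fistula surgery and an injection of cyclosporin A, an inhibitor of calcineurin. The VO group had the fistula surgery alone, and the Sham group a sham operation. The 7 genes were chosen by measured values of these libraries, taken here as their FPKM levels and the differences between all 3 groups, since no narrower measure is recorded. Levels, fold changes and adjusted p-values of the 7 are therefore given as a description in all 3 comparisons, not as independent evidence. Neither the age when tissue was taken nor whether libraries come from different mice is in the labels, and p-values here reflect only how far these samples spread, which may be technical. In whole tissue, fewer cells of a type and less RNA per cell cannot be told apart.

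A snoRNA host gene is a transcription unit whose introns carry snoRNAs. After splicing, the excised introns are trimmed to snoRNAs, which guide chemical modification of ribosomal and small nuclear RNAs or help to cut the ribosomal precursor. The joined exons of the hosts described here hold no long open reading frame, and several of these spliced RNAs, Gas5 among them, are known to be short-lived because translation of their short frames exposes them to nonsense-mediated decay. Gas5 and several other hosts belong to the genes with a 5′ terminal pyrimidine tract, a sequence shared with ribosomal protein genes and tied to control of translation by growth signals.

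The hosts differed in what they carried. Gas5 held 10 rows of snoRNA type inside its span, Snhg1 held 8, Snhg12 held 5, Snhg3 and Snhg5 held 2 each, and Snhg6 and Snhg8 held 1 each. Snord80 in Gas5 and Snora16a in Snhg12 each had 2 overlapping rows, so the 29 rows stood at 27 distinct positions. A further row in Gas5 is named Mir5117 and described as a microRNA. Box C and D snoRNAs, which guide 2′-O-methylation of ribose, carry the letters TGATGA near the start and CTGA near the end. Box H/ACA snoRNAs, which guide pseudouridylation, end with ACA and a few more bases. Exact C and D letters stood in 8 of 10 rows in Gas5, 5 of 8 in Snhg1, 2 of 2 in Snhg5, 1 of 1 in Snhg6, 1 of 5 in Snhg12 and in neither row of Snhg3. One snoRNA is printed for each of 3 hosts, to show both classes, 5′ to 3′ as DNA from the GENCODE M21 transcripts (GRCm38). Capitals mark TGATGA and CTGA in the first pair and ACA in the last. They are Snord47 in Gas5 (chr1:161038082-161038158, plus strand, 77 bases), Snord87 in Snhg6 (chr1:9942463-9942549, minus strand, 87 bases) and Snora24 in Snhg8 (chr3:123507937-123508066, minus strand, 130 bases).
Snord47: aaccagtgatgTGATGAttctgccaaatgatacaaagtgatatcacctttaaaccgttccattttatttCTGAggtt
Snord87: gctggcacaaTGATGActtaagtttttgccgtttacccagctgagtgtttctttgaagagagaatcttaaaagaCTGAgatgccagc
Snora24: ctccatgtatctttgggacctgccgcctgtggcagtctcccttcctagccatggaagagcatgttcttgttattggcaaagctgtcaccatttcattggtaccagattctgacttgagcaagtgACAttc

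The snoRNAs themselves were almost unmeasured in these libraries. Of the 29 rows inside the 7 hosts, 28 stood at 0 fragments in all 9 libraries, and Snord87 had 1 fragment, in CsA 2. The rows were 60 to 205 bases long, and 202 of all 1507 snoRNA rows had any fragment. The values that follow are those of the host rows. Same-strand snoRNA genes covered 17.8% of the exon bases of Gas5, 20.9% of Snhg1 and 19.6% of Snhg12. The share was 16.1% in Snhg3, 15.2% in Snhg8, 8.32% in Snhg5 and 0.0% in Snhg6. A fragment there can be left uncounted or given to the host, so a snoRNA row at 0 does not show that the snoRNA was absent. How much of the host values came from snoRNA positions was not tested.

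Promoter windows from RefSeq (GRCm38.p6) were matched for 6 of the 7 hosts, with 2 windows for Gas5 and no window for Snhg6. The windows of 5 tested hosts are shown because these genes varied between libraries, from 50 bases before the annotated start to 30 bases after it, 5′ to 3′ on the gene's strand. Capitals mark the letters TATANA within 60 bases before the start, on the gene's strand, and a run of at least 5 C or T near the start. The windows lie at chr1:161035116-161035195 (plus strand) for Gas5, chr19:8723437-8723516 (plus strand) for Snhg1, chr9:88522868-88522947 (minus strand) for Snhg5, chr3:123508307-123508386 (minus strand) for Snhg8 and chr4:132308628-132308707 (plus strand) for Snhg12.
Gas5: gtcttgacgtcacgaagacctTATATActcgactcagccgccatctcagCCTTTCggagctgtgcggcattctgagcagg
Snhg1: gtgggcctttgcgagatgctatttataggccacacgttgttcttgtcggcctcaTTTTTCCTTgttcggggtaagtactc
Snhg5: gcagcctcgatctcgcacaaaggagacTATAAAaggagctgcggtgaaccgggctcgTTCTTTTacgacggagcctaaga
Snhg8: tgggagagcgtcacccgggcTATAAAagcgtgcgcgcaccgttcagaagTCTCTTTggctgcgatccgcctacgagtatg
Snhg12: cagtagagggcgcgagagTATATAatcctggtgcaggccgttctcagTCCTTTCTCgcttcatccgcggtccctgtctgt

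TATANA, a form of the TATA box letters, began at position -29 in Gas5, -23 in Snhg5, -30 in Snhg8 and -32 in Snhg12, counting the start as 0. It was found in 4 of the 7 windows of the hosts, against 4.91% of 32851 windows of all genes, and in 0 of 14 windows of 11 other noncoding hosts. On the opposite strand the letters (TNTATA as read along the gene) stood in 3 of 7 windows, against 3.91% of all, and TATATA reads the same on both strands, so these counts overlap. This motif was chosen after the windows had been read. A run of 5 or more C or T, from 20 bases before to 50 after the start, stood in 6 of 7 windows, against 75.9% of all. A run of 7 or more stood in 4 of 7, against 37.7% of all. The other window of Gas5, with its start at chr1:161034601 and not printed, held neither TATANA nor a run of at least 5. These matches are letters in a window, and binding was not measured.

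In the deposited table a host's length is its exon union, which for several of these genes is nearly the whole locus. For Gas5 (ENSMUSG00000053332, chr1:161034422-161038539, plus strand) 91.3% of the span was counted. All of the span was counted for Snhg1 (ENSMUSG00000108414, chr19:8723475-8726443, plus strand), Snhg8 (ENSMUSG00000104960, chr3:123507552-123508404, minus strand) and Snhg12 (ENSMUSG00000086290, chr4:132308623-132311024, plus strand). The share was 92.0% for Snhg5 (ENSMUSG00000097195, chr9:88521050-88522929, minus strand), 53.1% for Snhg6 (ENSMUSG00000098234, chr1:9941959-9944118, minus strand) and 17.4% for Snhg3 (ENSMUSG00000085241, chr4:132348014-132353686, minus strand). Retained-intron forms made up 20 of 25 annotated transcripts in Gas5, 14 of 18 in Snhg1, 3 of 6 in Snhg5 and 1 of 3 in Snhg8. Snhg12, whose span was also counted in full, had 0 among 10, and Snhg3 and Snhg6 had 0 among 5 each. An FPKM of Gas5 is therefore divided by 3760 bases, whereas its spliced forms had a median of 502 bases.

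**Figure D1:**
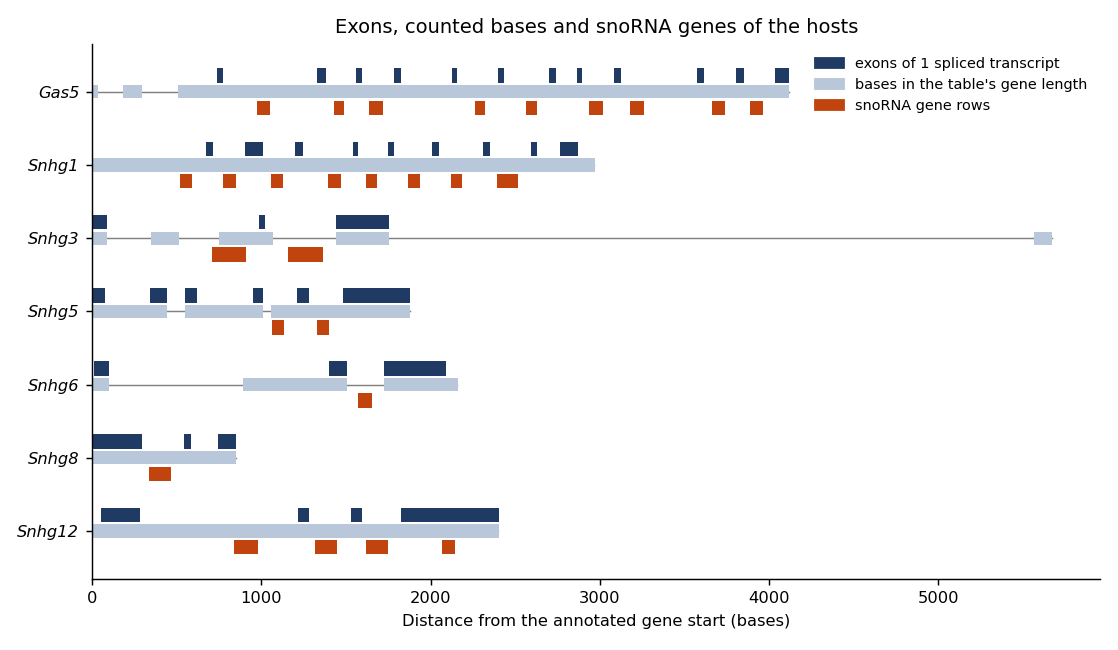
Each host drawn to scale from its annotated start, in bases, with the exons of 1 spliced transcript of near-median length (dark blue), the bases in the table's gene length (light blue) and the rows of snoRNA type (orange, 29 in all, some overlapping). The light blue bar of Gas5, Snhg1, Snhg5, Snhg8 and Snhg12 runs through the snoRNA positions, and that of Snhg6 leaves its 1 snoRNA out.

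The order of the levels depended on that length. On the table's own FPKM, averaged over the 9 libraries, Snhg6 led with 13.5, followed by Gas5 with 3.90, Snhg5 with 3.87, Snhg1 with 2.98, Snhg8 with 2.40 and Snhg12 with 1.13. Divided by the median spliced length instead, the mean level was 29.2 FPKM for Gas5, 27.6 for Snhg6, 16.1 for Snhg1, 8.58 for Snhg5, 4.20 for Snhg8 and 2.98 for Snhg12. Gas5 and Snhg6 changed places, and Snhg1 passed Snhg5. The second order takes every fragment as coming from spliced exons. Fragments from introns or retained-intron forms, where counted, make these levels too high, and their share was not measured. On the table's FPKM in the Sham libraries, Snhg6 lay above every library of the others and Snhg12 below every one, and Gas5, Snhg5, Snhg8 and Snhg1, at 3.39 ± 0.863, 2.46 ± 0.819, 2.16 ± 0.214 and 2.09 ± 0.443 FPKM (SD, n = 3), did not separate from their neighbours in that order. Summed over the 9 libraries the fragments numbered 2018 for Snhg6, 1860 for Gas5, 1136 for Snhg1, 865 for Snhg5, 349 for Snhg12, 263 for Snhg8 and 1 for Snhg3.

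The libraries held 12046288 to 15986747 fragments. VO 3 stood apart, with 11.01% of its fragments from mitochondrially encoded genes, against 22.18% to 26.34% in the other 8 libraries, and the fold changes of each host in comparisons with VO are given with and without it. The atrial light chain Myl7 was high in CsA 3 (68.3 FPKM), Sham 1 (235 FPKM) and Sham 3 (269.7 FPKM) and at 0.959 to 13.2 FPKM in the other libraries. The 8 atrial markers listed summed to 20.1 to 165 FPKM in CsA, 18.8 to 25.7 FPKM in VO and 22.2 to 613 FPKM in Sham libraries. In VO against Sham 7 of the 8 were below 0, with a median log2 fold change of -2.56, 1 called lower and 2 lower without overlap. In CsA against VO 7 were above 0, with a median of 0.75, 0 called and 2 higher without overlap. The 5 erythroid markers summed to 666 to 1039 FPKM in CsA, 591 to 2038 FPKM in VO, with the highest in VO 3, and 710 to 895 FPKM in Sham libraries. The 7 ventricular markers listed were all present, with summed levels of 12041 to 12397 FPKM in CsA, 8509 to 13831 FPKM in VO and 11080 to 14266 FPKM in Sham libraries. In VO against Sham 6 of the 7 were below 0, with a median log2 fold change of -0.48, 0 called and 2 lower without overlap. All 7 were above 0 in CsA against VO, with a median of 0.32, 0 called and 1 without overlap. The 5 endothelial markers summed to 242 to 284 FPKM in CsA, 170 to 190 FPKM in VO and 237 to 271 FPKM in Sham libraries, so they separated VO from both other groups. In VO against Sham 4 of the 5 were below 0, with 2 called lower and 4 lower without overlap. In CsA against VO 4 were above 0, with 0 called and 4 higher without overlap. The 4 smooth muscle and pericyte markers summed to 688 to 787 FPKM in CsA, 534 to 697 FPKM in VO and 695 to 1009 FPKM in Sham libraries. All 4 had log2 fold changes below 0 in VO against Sham, with a median of -0.73, 1 called lower and 2 without overlap. All 4 were above 0 in CsA against VO, with a median of 0.64, 0 called and 2 without overlap. Among all tested genes, 2.72% were called lower and 17.0% were lower without overlap in VO against Sham. In CsA against VO 0.0% were called, and 10.9% were higher in CsA without overlap. The 3 adipocyte markers, of which 1 was tested, summed to 137 to 175 FPKM in CsA, 111 to 456 FPKM in VO and 113 to 130 FPKM in Sham libraries. The part of the atrial, ventricular, erythroid, endothelial, smooth muscle and adipocyte markers in the host gene values was not tested.

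In VO against Sham hearts, 2 of the 6 tested hosts passed an adjusted p of 0.05, Snhg5 and Snhg1, and both rose. Among all 13477 tested genes 4.76% passed, 2.04% as higher and 2.72% as lower in VO. The libraries of 4 hosts did not overlap, Gas5, Snhg1, Snhg5 and Snhg6, each higher in VO, against 16.2% of all genes (17.0% were lower in VO without overlap). The median log2 fold change of the 6 was 0.58, against 0.003 over all tested genes. Without VO 3, limma called 4 hosts, Snhg1, Snhg5 and Snhg6 as higher and Snhg8 as lower in VO, but not Gas5. Of the 13477 genes it then called 2032, 941 as higher and 1091 as lower in VO. Fold changes are on the log2(FPKM + 1) scale, which understates the change of low genes, with their standard errors (SE) and limma's Benjamini-Hochberg adjusted p over all tested genes.

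Snhg5, a carrier of the Snord50 pair, had 4.90, 7.39 and 7.07 FPKM in VO, against 3.29, 2.45 and 1.65 FPKM in Sham libraries. Every VO library lay above every Sham library, and VO 3 was not the highest. The log2 fold change was 1.12 (SE 0.200), with a limma adjusted p of 0.0382, the highest fold that passed among the hosts. Without VO 3 it was 1.05 (SE 0.219), with a limma adjusted p of 0.0337. The call was lost, with limma adjusted p between 0.0526 and 0.183, when CsA 1, CsA 3, VO 1, Sham 1, Sham 2 or Sham 3 was left out.

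Snhg1, the host of Snord22 and of 7 further snoRNA rows, had 3.42, 4.00 and 5.45 FPKM in VO, against 1.75, 2.59 and 1.92 FPKM in Sham libraries. The groups did not overlap, and VO 3 was the highest of the 9 libraries. The log2 fold change was 0.77 (SE 0.176), with a limma adjusted p of 0.0436. Without VO 3 it was 0.61 (SE 0.153), with a limma adjusted p of 0.0400. The call was lost, with limma adjusted p between 0.0559 and 0.193, without any 1 of CsA 1, CsA 3, VO 1, VO 2, Sham 1, Sham 2 or Sham 3.

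Snhg6, the host of Snord87, had 13.9, 16.8 and 33.7 FPKM in VO, against 7.30, 9.04 and 9.49 FPKM in Sham libraries. VO 3 was 2.20 times the mean of VO 1 and VO 2, a ratio that 8.21% of the tested genes exceeded, and VO 1 and VO 2 also lay above all Sham libraries. The log2 fold change of 1.13 (SE 0.281) missed the threshold, with a limma adjusted p of 0.0511. Without VO 3 the log2 fold change was smaller, 0.77 (SE 0.158), and passed with a limma adjusted p of 0.0337.

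Gas5, named for its rise in growth-arrested cells, had 4.36, 4.47 and 5.18 FPKM in VO, against 3.54, 4.17 and 2.46 FPKM in Sham libraries. The lowest VO library was just above the highest Sham library, and the Sham libraries were spread more widely than those of the other groups. The log2 fold change was 0.39 (SE 0.161), with a limma adjusted p of 0.146. Without Sham 3 it was 0.22 (SE 0.151; adjusted p 0.426 by limma), and without VO 3 it was 0.32 (SE 0.165; adjusted p 0.184 by limma). After GC correction it was 0.13 (SE 0.173; adjusted p 0.682 by limma).

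**Figure D2:**
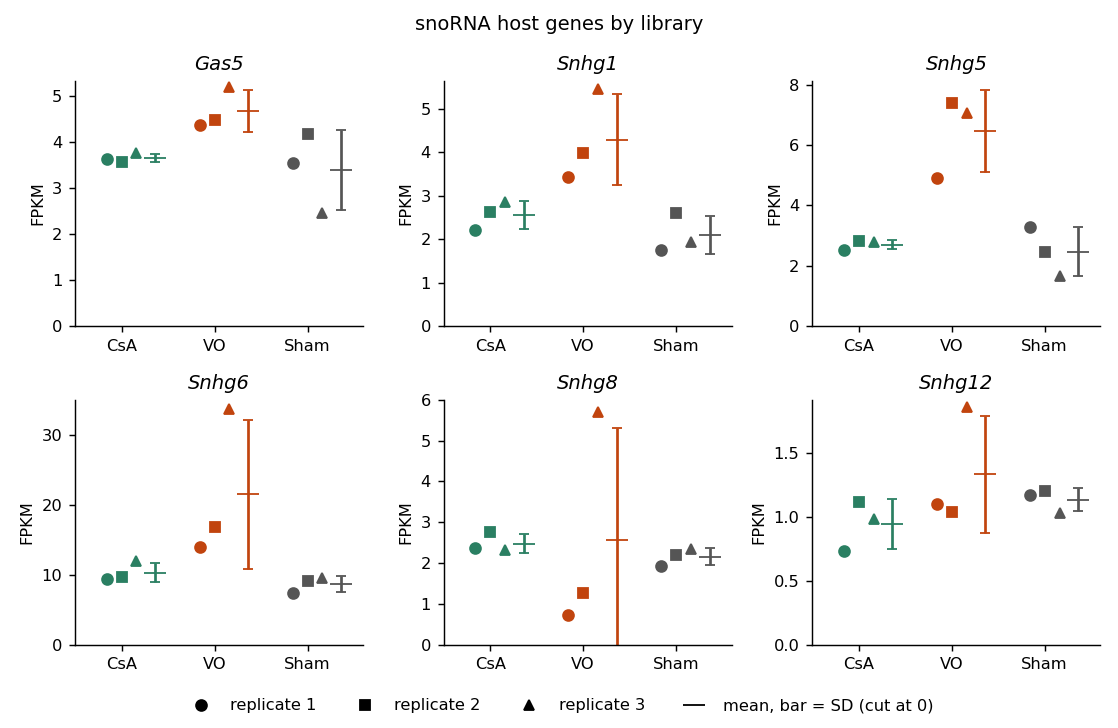
FPKM of the 6 tested hosts in each library of the CsA (green), VO (red) and Sham (grey) groups, with group means and SD bars (n = 3 each) to the right of the points. VO libraries lie above both other groups for Gas5, Snhg1, Snhg5 and Snhg6, and for Snhg8 VO 1 and VO 2 lie lowest of all and VO 3 highest.

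Snhg8, whose 1 snoRNA row is the H/ACA Snora24, differed between the libraries of the VO group. It had 0.736, 1.27 and 5.71 FPKM in VO, against 1.93, 2.19 and 2.35 FPKM in Sham libraries. VO 1 and VO 2 lay below every Sham library, and VO 3 lay above all of them, at 5.69 times the mean of VO 1 and VO 2, a ratio that 0.528% of the tested genes exceeded. The VO 1 value rested on 10 fragments and the VO 3 value on 84. Exact Poisson 95% intervals, which cover counting error only, ran 0.353 to 1.35 FPKM in VO 1, 0.696 to 2.14 FPKM in VO 2 and 4.56 to 7.07 FPKM in VO 3, and the last did not meet the others. With all libraries the log2 fold change was -0.08 (SE 0.404; adjusted p 0.916 by limma). Without VO 3 it was -0.67 (SE 0.148), with a limma adjusted p of 0.0353.

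Snhg12, which carries Snora16a, Snora44, Snora61 and Snord99, had 1.10, 1.03 and 1.86 FPKM in VO, against 1.17, 1.2 and 1.03 FPKM in Sham libraries. VO 1 and VO 2 lay within or next to the Sham range, and VO 3 lay above it. The log2 fold change was 0.11 (SE 0.165; adjusted p 0.688 by limma), and it turned to -0.05 without VO 3.

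Snhg3, the host of the Snora73 pair that takes part in cutting the ribosomal precursor, had no fragment in 8 libraries and 1 fragment in Sham 3, at 0.0783 FPKM. As a one-sided limit, a count of 0 allows up to 3 fragments, which correspond to 0.176 FPKM in VO 3, the deepest library, and to 0.255 FPKM in CsA 1. Of its 986 exon bases, 86.3% lie under exons of other genes on either strand, 71.5% under the antisense Gm17300 and 13.7% under Rcc1 on the same strand. A fragment there can be left uncounted or given to another gene, and the strand setting of the counting is not known here. Gm17300 itself stood at 0.288, 0.457 and 0.304 FPKM in VO, against 0.135, 0.188 and 0.101 FPKM in Sham libraries, too low to be tested. These values did not overlap, but no counting interval was computed for such low levels. Rcc1, which encodes a chromatin-bound exchange factor of Ran, averaged 3.46 ± 0.947 FPKM in VO and 2.19 ± 0.0200 FPKM in Sham libraries (SD, n = 3 each), with a log2 fold change of 0.46 (SE 0.222; adjusted p 0.200 by limma).

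**Figure D3:**
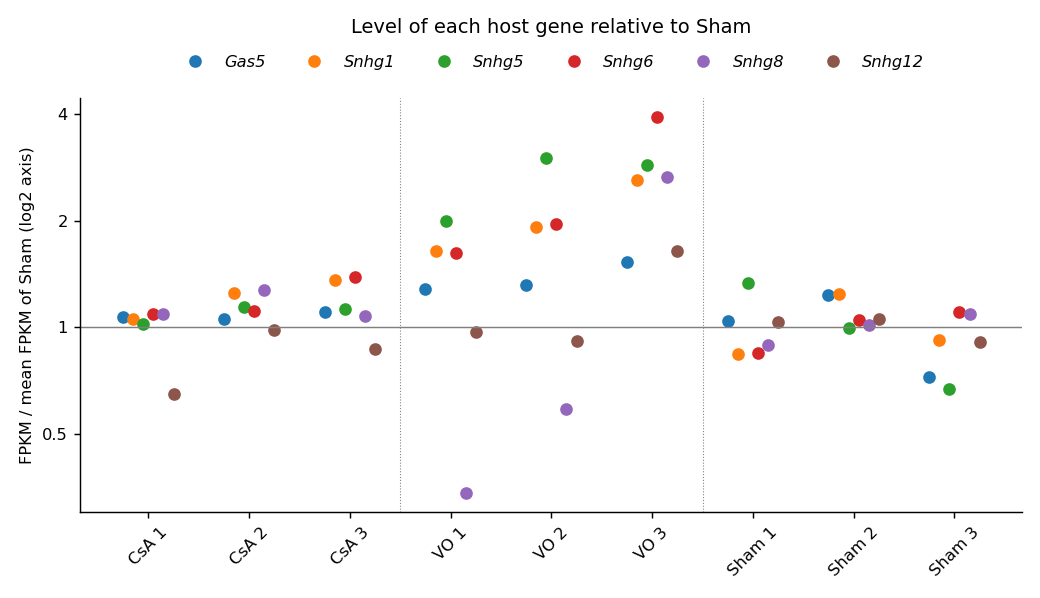
FPKM of each tested host in each library divided by the mean of its 3 Sham libraries, on a log2 axis, with libraries of CsA, VO and Sham from left to right. Snhg1, Snhg5 and Snhg6 lie well above 1 in all 3 VO libraries, Gas5 less so, Snhg8 lies below 1 in VO 1 and VO 2 and above it in VO 3, and Snhg12 lies above 1 only in VO 3 among the VO libraries.

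Added over the 7 hosts, the levels came to 28.4, 34.9 and 59.0 FPKM in VO, against 19.0, 21.6 and 19.0 FPKM in Sham libraries. Snhg6 alone made up 48.9%, 48.0% and 57.1% of the sum in the VO libraries. The CsA libraries summed to 20.8, 22.4 and 24.6 FPKM.

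The comparison of CsA with VO addresses the levels after fistula surgery with and without cyclosporin A. Snhg5 stood at 2.52, 2.80 and 2.77 FPKM in CsA, against 4.90, 7.39 and 7.07 FPKM in VO libraries. The 3 CsA libraries were close together and all lay below the lowest VO library. The log2 fold change was -0.99 (SE 0.200), with a limma adjusted p of 0.204, and -0.93 (SE 0.219; adjusted p 0.125 by limma) without VO 3.

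Snhg6 stood at 9.36, 9.59 and 11.9 FPKM in CsA, against 13.9, 16.8 and 33.7 FPKM in VO libraries. The groups did not overlap, and the log2 fold change was -0.90 (SE 0.281), with a limma adjusted p of 0.219. Without VO 3 it was -0.54 (SE 0.158; adjusted p 0.143 by limma). Snhg1 stood at 2.20, 2.61 and 2.85 FPKM in CsA, against 3.42, 4.00 and 5.45 FPKM in VO libraries, again without overlap, with a log2 fold change of -0.56 (SE 0.176; adjusted p 0.219 by limma). Gas5 had 3.63, 3.57 and 3.75 FPKM in CsA, all below the lowest VO library at 4.36 FPKM. Its log2 fold change was -0.28 (SE 0.161; adjusted p 0.396 by limma). Without VO 3 the log2 fold changes were -0.41 (SE 0.153; adjusted p 0.177 by limma) for Snhg1 and -0.22 (SE 0.165; adjusted p 0.429 by limma) for Gas5.

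These 4 hosts were the ones whose CsA and VO libraries did not overlap, each lower in CsA, against 10.3% of all tested genes. None of the 6 passed, as none of the 13477 genes did: limma called 0.0% in this comparison, with 2219 genes (16.5%) at an unadjusted p under 0.05, and voom on recovered fragments also called 0. The other hosts did not separate. Snhg8 had 2.36, 2.75 and 2.32 FPKM in CsA libraries, between VO 2 and VO 3, and Snhg12 had 0.733, 1.11 and 0.983 FPKM in CsA libraries, which overlapped VO. Their log2 fold changes were 0.22 (SE 0.404; adjusted p 0.816 by limma) and -0.25 (SE 0.165; adjusted p 0.460 by limma). Without VO 3 they were 0.81 (SE 0.148; adjusted p 0.125 by limma) and -0.09 (SE 0.132; adjusted p 0.681 by limma).

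In CsA against Sham hearts, the libraries of all 6 tested hosts overlapped, against 4.8% of all genes higher and 4.94% lower in CsA without overlap. Group means were 2.70 ± 0.156 FPKM in CsA and 2.46 ± 0.819 FPKM in Sham for Snhg5, 10.3 ± 1.40 FPKM in CsA and 8.61 ± 1.16 FPKM in Sham for Snhg6, and 2.55 ± 0.327 FPKM in CsA and 2.09 ± 0.443 FPKM in Sham for Snhg1 (SD, n = 3 each). Gas5 averaged 3.65 ± 0.0903 FPKM in CsA and 3.39 ± 0.863 FPKM in Sham, Snhg8 2.48 ± 0.236 FPKM in CsA and 2.16 ± 0.214 FPKM in Sham, and Snhg12 0.942 ± 0.192 FPKM in CsA and 1.13 ± 0.0910 FPKM in Sham (SD, n = 3 each). Log2 fold changes lay between -0.14 for Snhg12 and 0.23 for Snhg6, and each limma adjusted p was 1. Limma called 0.0% of all genes here, with 200 genes (1.48%) at an unadjusted p under 0.05, and voom called 0. The VO libraries enter the first pair of comparisons and the Sham libraries the first and the last, so the 3 sets of fold changes are not independent of each other.

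**Figure D4:**
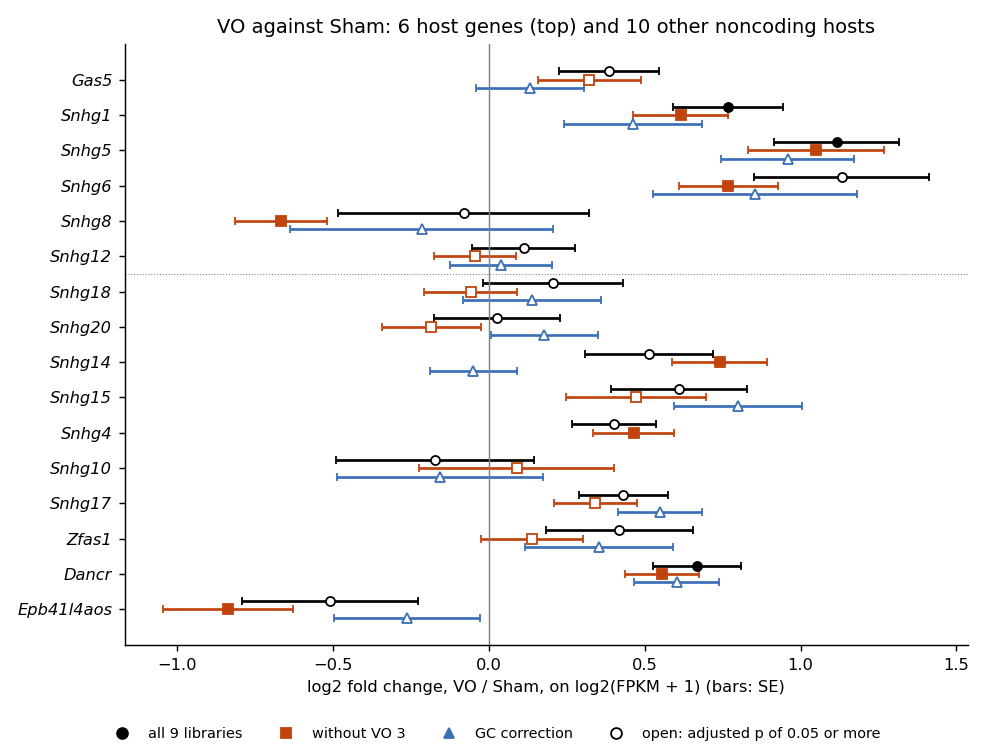
Log2 fold change of VO over Sham with SE bars for the 6 tested hosts (above the dotted line) and 10 other noncoding hosts, with all 9 libraries (black), without VO 3 (red) and after GC correction (blue, which gave no value for Snhg4); filled symbols have a limma adjusted p under 0.05. Snhg5 and Snhg1 are filled with all libraries and without VO 3, Snhg6 and Snhg8 are filled without VO 3 and open in the other fits shown, and no symbol is filled after GC correction.

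The VO against Sham calls of Snhg1 and Snhg5 depended on the fit. After a trend of each library on gene GC content was removed, Snhg1 had a log2 fold change of 0.46 (SE 0.223; adjusted p 0.265 by limma) and Snhg5 of 0.96 (SE 0.213; adjusted p 0.0865 by limma). Limma then called 0 genes in all, with 2844 at an unadjusted p under 0.05, and voom, which was run without the correction, called 908. The calls of the other genes given as passing were lost there as well. Leaving out CsA 3, Sham 1 and Sham 3 together left Sham 2 alone in its group. The log2 fold changes were then 1.09 for Snhg5 and 0.54 for Snhg1. With no spread to be seen within Sham, whether a call holds cannot be read from that fit.

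Other noncoding hosts were set beside the 7. Of 13 listed, 10 were tested, and 8 of the 10 had a log2 fold change above 0 in VO against Sham, with a median of 0.41. Dancr, a host known as a blocker of cell differentiation, passed as higher, 1 of 10 against 2.04% of all tested genes. It had 1.31, 1.26 and 1.88 FPKM in VO, against 0.584, 0.551 and 0.526 FPKM in Sham libraries, with a log2 fold change of 0.67 (SE 0.141; adjusted p 0.0408 by limma). All 3 VO libraries were above all Sham libraries, as they were for 4 of the 10 and for 16.2% of all tested genes.

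The other 9 did not pass with all libraries. Snhg17, Snhg4, Snhg15, Snhg14 and Zfas1 had log2 fold changes of 0.43, 0.40, 0.61, 0.51 and 0.42, Snhg18 and Snhg20 of 0.21 and 0.03, and Snhg10 and Epb41l4aos of -0.17 and -0.51, with limma adjusted p between 0.0906 and 0.946. Snhg11 had 10 fragments over 4 of the 9 libraries, and Snhg9 and Snhg7os were at 0 fragments in every library. Without VO 3, Snhg14 and Snhg4 also passed as higher and Epb41l4aos as lower. In that fit limma called 2032 of all 13477 tested genes, 941 as higher and 1091 as lower in VO. In CsA against VO, 8 of the 10 were below 0, with a median of -0.31, and none passed.

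Genes next to the hosts did not share one direction. Slc3a2, which encodes the heavy chain of amino acid transporters, starts 105 bases from Snhg1 on the opposite strand. It had 3.47, 4.92 and 3.62 FPKM in VO, against 7.93, 6.81 and 7.15 FPKM in Sham libraries, the opposite direction to Snhg1 and without overlap. Its log2 fold change was -0.74 (SE 0.172; adjusted p 0.0456 by limma). In CsA libraries Slc3a2 averaged 6.24 ± 1.23 FPKM (SD, n = 3), with a log2 fold change against VO of 0.53 (SE 0.172; adjusted p 0.221 by limma).

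Zbtb37, whose span overlaps that of Gas5 on the opposite strand with no shared exon base, had 2.18, 1.43 and 0.216 FPKM in VO, against 1.18, 1.21 and 1.19 FPKM in Sham libraries. VO 3 was far below the others, and the log2 fold change was -0.06 (SE 0.292; adjusted p 0.921 by limma). Trnau1ap, 738 bases from Snhg12, had a log2 fold change of 0.13 (SE 0.257; adjusted p 0.764 by limma). Mcmdc2, which overlaps 11.1% of the exon bases of Snhg6 on the opposite strand, reached at most 0.0579 FPKM in any library. Prss12, 954 bases from Snhg8, was also too low to be tested.

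Lists of genes tied to snoRNA function held few calls: 1 of 41, 1 of 19, 1 of 25 and 0 of 16 passed in VO against Sham, shares near or below the 4.76% of all tested genes. In the same order, 17, 7, 6 and 3 were higher in VO without overlap, against 16.2% of all tested genes. Lower in VO without overlap were 3, 0, 2 and 3, against 17.0% of all. Among 41 protein-coding snoRNA hosts, mostly genes of ribosomal proteins and translation factors, 31 had a log2 fold change above 0 in VO against Sham, the median was 0.44, and 0 passed as higher. The 1 that passed was lower, Rpl23a, at 7.04, 16.5 and 5.07 FPKM in VO, against 72.8, 57.9 and 59.4 FPKM in Sham libraries (log2 fold change -2.76, SE 0.431, limma adjusted p 0.0382). Rpl23a has near-identical pseudogene copies, so its level is uncertain. VO 3 set much of this list's range: summed levels were 3803 to 4004 FPKM in CsA, 3481 to 7010 FPKM in VO and 3518 to 3854 FPKM in Sham libraries.

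Of 19 core and assembly proteins of snoRNA particles, 1 passed, Znhit6, an assembly factor of box C and D particles. It had 3.76, 3.24 and 6.70 FPKM in VO, against 1.91, 2.0 and 1.80 FPKM in Sham libraries, with a log2 fold change of 0.89 (SE 0.211; adjusted p 0.0464 by limma). Every VO library lay above every Sham library, and the list's median was 0.30 with 13 of 19 above 0.

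Of 25 genes of ribosomal RNA transcription and processing, 1 passed, Wdr43, a part of the small-subunit processome. It had 15.5, 15.01 and 11.5 FPKM in VO, against 7.63, 8.25 and 7.27 FPKM in Sham libraries, with a log2 fold change of 0.77 (SE 0.168; adjusted p 0.0408 by limma). The groups did not overlap, and the list's median was 0.19 with 18 of 25 above 0.

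None of the 16 nonsense-mediated decay factors passed, and their median was -0.04 with 6 of 16 above 0. Upf1, the helicase at the centre of this decay, had 8.38, 9.30 and 8.24 FPKM in VO, against 13.2, 11.0 and 14.3 FPKM in Sham libraries, with a log2 fold change of -0.52 (SE 0.143; adjusted p 0.0602 by limma). Magoh, an exon junction protein, had 25.6, 34.3 and 74.1 FPKM in VO, against 16.9, 22.2 and 15.7 FPKM in Sham libraries, with a log2 fold change of 1.11 (SE 0.333; adjusted p 0.0714 by limma). Both separated the groups without passing the threshold. In CsA against VO no gene of these 4 lists passed, and the medians were -0.25 for the protein-coding hosts, -0.18 for particle proteins, -0.21 for ribosomal RNA genes and 0.003 for decay factors.

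Across the 9 libraries the correlation of log2(FPKM + 1) was highest for Snhg1 and Snhg6, at a Pearson r of 0.954, and 0.934 over the 8 libraries without VO 3. Gas5, Snhg1, Snhg5 and Snhg6 correlated with each other at 0.71 to 0.95 with VO 3 and at 0.53 to 0.93 without it. Snhg8 correlated with these 4 at -0.01 to 0.41 with VO 3, and at -0.77 to -0.57 without it. Snhg12 correlated with them at 0.52 to 0.69 with VO 3, and at -0.10 to 0.14 without it. These values describe 9 libraries in 3 groups that share their normalization, and the group differences given above enter them.

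The protein-coding genes most like the mean profile of the tested hosts, among 9050 with a mean of at least 2 FPKM, were Psmd13, Dhodh, Mocs2, Rpl9, Magoh, Tsr2, Psma6, Rftn1, Banf1 and Gpn1, with Pearson r of 0.976 to 0.988 over 9 libraries. Psmd13, a proteasome subunit, came first, at an r of 0.988 (Spearman 0.883), and 0.943 without VO 3. At least 0.9 was reached by 296 of the 9050 genes (3.27%). Without VO 3 and VO 2, the libraries farthest from the median of the profile, r over the remaining 7 libraries lay between 0.761 and 0.907 for the 10 genes.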

How the data were processed

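Gene-level FPKM values were deposited by the authors for 9 libraries, and every value column was matched to a sample by its title. RNA was extracted with Trizol from right ventricular tissue and 1 µg went into each NEBNext Ultra library, per the labels' protocols. Per the submitters' processing notes, the tools were featureCounts 1.5.0-p3, HISAT2 2.0.5, GATK 3.7, StringTie 1.3.3b and DESeq2 1.20.0, with GRCm38 and mm10 as builds and no roles stated. The sources used here do not give the annotation counted or the strand setting. FPKM times gene length fell on whole fragments for 100% of values, within 0.1.

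Genes averaging 0.5 FPKM or more were transformed to log2(FPKM + 1) and all 9 libraries were fitted together with limma 3.58.1 (R 4.3.3, trended empirical Bayes, two-sided, Benjamini-Hochberg at 0.05). The fit was tested on simulated data with known changes. Alternatives were a pseudocount of 0.1, no filter or a mean of 1 FPKM, median-of-ratios scaling, rescaling without mitochondrially encoded genes, GC correction (loess, span 0.3), a replicate block, only the groups compared, voom on recovered fragments, library weights, and libraries left out.

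The 7 genes, the lists and the alternatives were chosen with earlier results of these data known. The genes named are the 7, detected noncoding hosts, up to 4 list members past the test by smallest p (or the 2 with the smallest p, given as not past it, for the lists where none passed in VO against Sham), neighbours within 1000 bases, snoRNA rows above 0 and the 10 most correlated protein-coding genes. Exon structure and snoRNA sequences came from GENCODE M21, and promoters from RefSeq GRCm38.p6. Figures were drawn with matplotlib 3.10.9.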

Additional observations from a re-analysis of the deposited data

How the results depend on the processing

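Over the 20 alternatives, the VO against Sham log2 fold change kept its sign for Gas5 (0.13 to 0.51), Snhg1 (0.46 to 1.03), Snhg5 (0.94 to 1.39) and Snhg6 (0.77 to 1.38), and passed the threshold in 0, 8, 9 and 5 of them. In CsA against VO the sign held for Gas5, Snhg1, Snhg5, Snhg6 and Snhg12, and no host passed under any alternative. Some alternatives cannot move a fold change, so the sign was fixed in them. They are the filters, the replicate block, only the groups compared, and leaving out a library of the group not compared.

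In VO against Sham 642 genes and 2 hosts were called. With no filter the counts were 0 genes and 0 hosts (4599 genes at an unadjusted p under 0.05). They were 0 and 0 with GC correction (2844), and 0 and 0 with only the compared groups (3357). Library weights gave 3787 genes. Without Sham 1, Sham 3 and CsA 3 only Sham 2 remained in its group, so no count is given for that fit. Leaving out 1 library at a time gave 0 to 2032 genes and 0 to 4 hosts, the highest without VO 3. Without VO 2, 1 host passed. For CsA against VO the range was 0 to 1 genes and for CsA against Sham 0 to 3. The replicate numbers did not pair the libraries, with correlations of same-numbered deviations between -0.4 and 0.237, and a replicate block left 1 gene and 0 hosts called, with Snhg5 at an adjusted p of 0.0766 and Snhg1 at 0.0804. The cause of these differences was not tested.

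Signs turned for small values. In VO against Sham, Snhg12 was at -0.041 with library weights and ranged over -0.045 (without VO 3) to 0.20 (without VO 2) when 1 library was left out, and Snhg8 over -0.67 (without VO 3) to 0.31 (without VO 1), with 0.11 without VO 2. In CsA against VO, Snhg8 ranged over -0.17 (without VO 1) to 0.81 (without VO 3). In CsA against Sham, Gas5 was at -0.0076 with GC correction, at -0.17 without Sham 1, Sham 3 and CsA 3, and ranged over -0.059 (without Sham 3) to 0.23 (without Sham 2). Snhg1 was at -0.078 without those 3 libraries, and Snhg5 at -0.039 with library weights, with a range of -0.058 (without Sham 3) to 0.29 (without Sham 1). Counting precision is lowest for Snhg8 (10 to 84 fragments per library) and Snhg12 (21 to 77). Snhg3 had 1 fragment in all, and whether depth or its overlap with other genes set this was not tested.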
